A study of Saccharomyces cerevisiae with 8 samples.

Results

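The sgs1 null strain of budding yeast, Saccharomyces cerevisiae, was compared with wild type while both grew with methyl methanesulfonate (MMS). The members were the 2 arrays labelled sgs1 null with MMS and the 2 labelled wild type with MMS, 4 of the 8 arrays in the series, taken by the sample descriptions. The other 4 arrays, 2 of untreated sgs1 null and 2 of untreated wild type cells, entered the fit of the spread and a side comparison. All cultures were in log phase, and total RNA of each sample went on 1 array. The labels give no MMS dose or exposure time, no strain background or mating type, and not how SGS1 was removed. The second array of each group carries the word rep, and the first is unmarked. Since nothing in the labels names separate cultures, a p-value reflects the scatter of these samples alone, and that scatter may be technical.

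SGS1 encodes the RecQ-family DNA helicase of yeast, related to the human helicases lost in Bloom and Werner syndromes. With the topoisomerase Top3 and its partner Rmi1 it takes apart joined DNA molecules that form during recombination and at stalled replication forks. MMS methylates DNA bases and slows forks, which activates the Mec1 and Rad53 checkpoint kinases and the genes of ribonucleotide reductase and repair, and cells without Sgs1 are known to be sensitive to it.

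SGS1 itself was at the bottom of the scale in every array of the null strain. The deposited intensities of its probe set were 17.7 and 2.1 in sgs1 null with MMS, against 339.1 and 577.3 in wild type with MMS. After the arrays were put on a common scale, both null arrays lay below the floor of 97.1 to which low intensities were raised, and the wild type arrays read 354 and 546. SGS1 was thus at least 4.53-fold lower in sgs1 null with MMS, and all arrays lay on the side of their label, but the difference did not pass the threshold of 0.05 on limma's adjusted p (0.299). On the log2 scale the difference was -2.18 from this floor, -1.07 with a floor at the 20th percentile and -5.40 with no floor, so its size is a bound.

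Of 7641 features tested, 5580 of them named genes, limma called 1 at that threshold, which is 0.0131% of features, and it was a probe set without a gene name. This probe set, 3982_at, rose in the null strain. Its deposited intensities were 16074.9 and 15180.5 in sgs1 null with MMS, against 5.2 and 3.1 in wild type with MMS. On the common scale it was at least 172-fold higher in sgs1 null, a log2 difference of 7.43 ± 0.077 (SE) from the floor (adjusted p = 1.87e-05). Without MMS its deposited intensities were 13072.3 and 13783 in sgs1 null, against 7.9 and 11.2 in wild type, so it separated the strains in both conditions. It was brighter than all but 60 and 47 probe sets on the 2 sgs1 null arrays with MMS, and the tables used here pair it with no gene.

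No named gene passed. The smallest adjusted p of a named gene was 0.075, and 7 named genes were below 0.1: MEP2, YIR043C, GAP1, ARO10, ISF1, COS8 and PUT4. Without adjustment, 472 features (6.18%) had a limma p below 0.05, 271 of them higher in sgs1 null (3.55%) and 201 lower (2.63%). Strain differences are therefore also given as measured values, by a plain rule: at least 2-fold between the group means of log2 intensity, with both sgs1 null arrays on the same side of both wild type arrays. By this rule 79 features were higher in sgs1 null with MMS (1.03% of those tested), 63 of them named genes, and 38 were lower (0.497%), 16 of them named genes. By the looser rule of not overlapping, whatever the size, 964 features were higher (12.6%) and 987 lower (12.9%). These shares are the background against which the counts of list members are read.

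Some features of the arrays moved with the strain or with the mark. The ratio of 3′ to 5′ signal of the ACT1 control probe sets, a gauge of RNA integrity and labelling, was 3.25 and 2.70 in sgs1 null with MMS, against 2.23 and 2.07 in wild type with MMS. For SRB4 it was 7.00 and 8.04 in sgs1 null, against 5.46 and 5.90 in wild type, while for SPT15 it was 3.52 and 2.25 in sgs1 null and 2.69 and 2.80 in wild type. The first 2 did not overlap between strains, and their part in the strain differences was not tested. The arrays of a strain correlated at 0.952 for sgs1 null with MMS and 0.954 for wild type with MMS, while the unmarked arrays of both strains correlated at 0.975 and the rep arrays at 0.974.

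**Figure D1:**
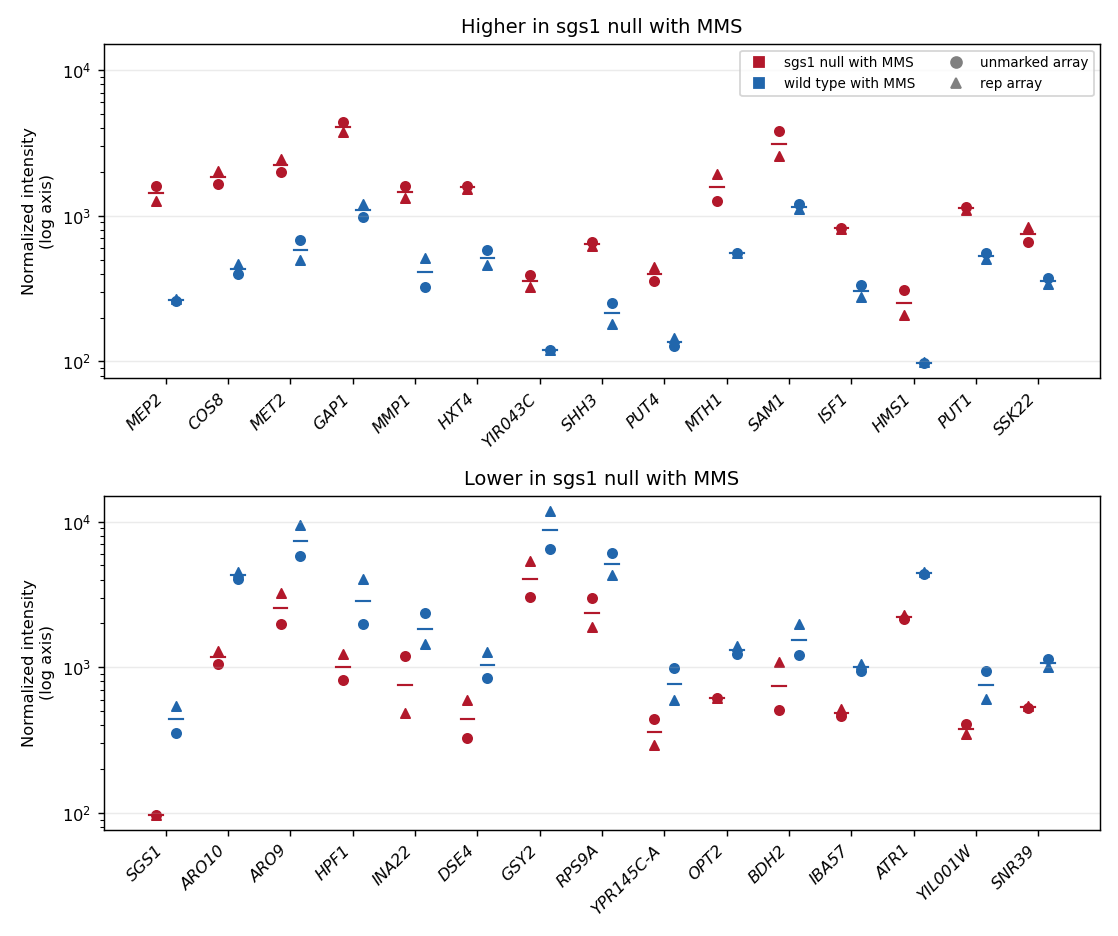
Normalized intensity on a log axis of the 15 named genes higher (upper panel) and the 15 lower (lower panel) in sgs1 null with MMS, by the smallest p among genes at least 2-fold apart. Each gene has its sgs1 null arrays on the left in red and its wild type arrays on the right in blue, circles for unmarked arrays, triangles for rep arrays and bars for the group mean on the log scale. MEP2, COS8 and MET2 lead the upper panel, and SGS1, at the floor of 97.1 in the null strain, the lower one.

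Genes for taking up and using poor nitrogen sources made up 6 of the 63 named genes that were 2-fold higher in sgs1 null with MMS. Yeast keeps these genes low while a preferred source such as ammonium or glutamine is plentiful, through GATA factors that include the repressor Dal80, and uses their permeases to bring in ammonium, proline and other amino acids. MEP2, the high-affinity ammonium permease that also acts as a sensor, read 1608 and 1264 in sgs1 null with MMS, against 258 and 267 in wild type with MMS. The strains lay far apart and each pair of arrays was close. The mean was 1436 ± 243 in sgs1 null and 263 ± 6.03 in wild type (SD, n = 2 each), a log2 difference of 2.44 ± 0.17 (limma adjusted p = 0.075). MEP2 passed the threshold when the arrays were median centred (adjusted p = 0.0281), kept on the deposited scale (0.0277) or cleared of the dimmest 25% of features (0.0188), and over all settings tried its adjusted p ran from 0.0188 to 0.762.

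GAP1, the general amino acid permease, read 4398 and 3733 in sgs1 null with MMS, against 983 and 1209.7 in wild type with MMS, a log2 difference of 1.89 ± 0.14 (limma adjusted p = 0.085). Without MMS it read 4251 and 4405 in sgs1 null and 4246 and 3919.7 in wild type. Wild type with MMS was thus the only one of the 4 groups in which GAP1 was low. PUT4, the proline permease, read 359 and 447 in sgs1 null with MMS, against 128 and 145 in wild type with MMS (1.55 ± 0.14, adjusted p = 0.092). PUT1, the proline oxidase that starts proline breakdown, read 1154 and 1092 in sgs1 null, against 557 and 501 in wild type (1.09 ± 0.10, adjusted p = 0.109). Both proline genes stood apart by strain without MMS as well, by 1.61 for PUT4 and 0.97 for PUT1.

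The regulator DAL80 read 369.9 and 235 in sgs1 null with MMS, against 138 and 118 in wild type with MMS (1.21 ± 0.24, adjusted p = 0.397). UGA4, a permease for gamma-aminobutyrate, read 441 and 262 in sgs1 null, against 232 and 108 in wild type (1.10 ± 0.53, adjusted p = 0.912), with arrays of each strain widely spread. The difference of UGA4 ran from 0.55 without the second wild type array with MMS to 1.65 without the first. AGP1, a broad amino acid permease, was among the brighter genes at 10277 and 8961 in sgs1 null and 4816 and 5874 in wild type, a difference of 0.85 ± 0.17. GDH1, the glutamate dehydrogenase that assimilates ammonium, differed by 0.64 ± 0.12. DAL80 and PUT4 lay near the floor in wild type, and with a floor at the 20th percentile the difference was 0.49 for DAL80 and 0.93 for PUT4.

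In the whole list of 25 measured nitrogen genes and amino acid permeases, 0 passed the adjusted threshold. The 6 genes higher by at least 2-fold and not overlapping were MEP2, GAP1, PUT4, DAL80, UGA4 and PUT1, and 0 were lower by that rule. Over all features these shares were 1.03% and 0.497%. Against 12.6% of all features higher and 12.9% lower by non-overlap alone, 12 of the list were higher and 2 lower. Those lower were the permease genes BAP2 (-0.36) and GNP1 (-0.29), with -0.23 for BAP2 without the first sgs1 null array with MMS and -0.16 for GNP1 without the second wild type array with MMS. The median log2 difference of the list was 0.31, against 0 for all features. In the untreated strains it was 0.18, also with 12 higher and 2 lower, where 19.3% of all features were higher and 19.6% lower without overlap.

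Genes of sulfate assimilation and methionine synthesis formed the list with the largest share of members higher in sgs1 null with MMS. This pathway takes up sulfate, reduces it to sulfide, builds homocysteine and methionine, and turns methionine into the methyl donor S-adenosylmethionine. MET2, which activates homoserine for homocysteine synthesis, read 2008 and 2454 in sgs1 null with MMS, against 679 and 496 in wild type with MMS, a log2 difference of 1.93 ± 0.24 (limma adjusted p = 0.246). MET28, a transcription factor of the pathway, read 1854 and 1895 in sgs1 null, against 688 and 524 in wild type (1.64 ± 0.27). SAM1, one of the S-adenosylmethionine synthetase genes, read 3830.4 and 2555 in sgs1 null, against 1197 and 1109 in wild type (1.44 ± 0.23). For all 3 genes both sgs1 null arrays were above both wild type arrays, by more than the gap between arrays of either strain.

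STR3, which makes homocysteine from cystathionine, read 1647 and 2749 in sgs1 null with MMS, against 706 and 923 in wild type with MMS (1.40 ± 0.36). MET6, the methionine synthase, read 2297 and 2106 in sgs1 null, against 831 and 1045 in wild type (1.24 ± 0.31). MET16, of sulfate reduction, read 2062 and 1503 in sgs1 null, against 999 and 644 in wild type (1.13 ± 0.44). MET32, a zinc-finger regulator of the pathway, read 601 and 379 in sgs1 null, against 273 and 203 in wild type (1.02 ± 0.38). No arrays of these 4 genes overlapped between strains, and none of the 4 had an adjusted p under 0.5. The sulfate permease gene SUL2 differed by 0.80 ± 0.18 and MET3, the ATP sulfurylase that starts the pathway, by 0.79 ± 0.18.

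Over all features with MMS, 12.6% were higher and 12.9% lower without overlap, and 1.03% were higher by at least 2-fold. Of the 21 genes measured in this list, 15 were higher in sgs1 null with MMS without overlap, 7 of them by at least 2-fold, and 0 were lower. The median log2 difference was 0.72, and it lay between 0.62 and 0.82 when each array of the comparison was left out in turn. None passed the adjusted threshold. In the untreated strains the median was 0.24, with 8 genes higher and 1 lower without overlap, against 19.3% of all features higher and 19.6% lower there. MMP1, a high-affinity permease for S-methylmethionine, was not on the list. With MMS it read 1593 and 1332 in sgs1 null, against 323 and 516 in wild type (1.83 ± 0.27, limma adjusted p = 0.299). Untreated, the difference of MMP1 was 1.41.

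**Figure D2:**
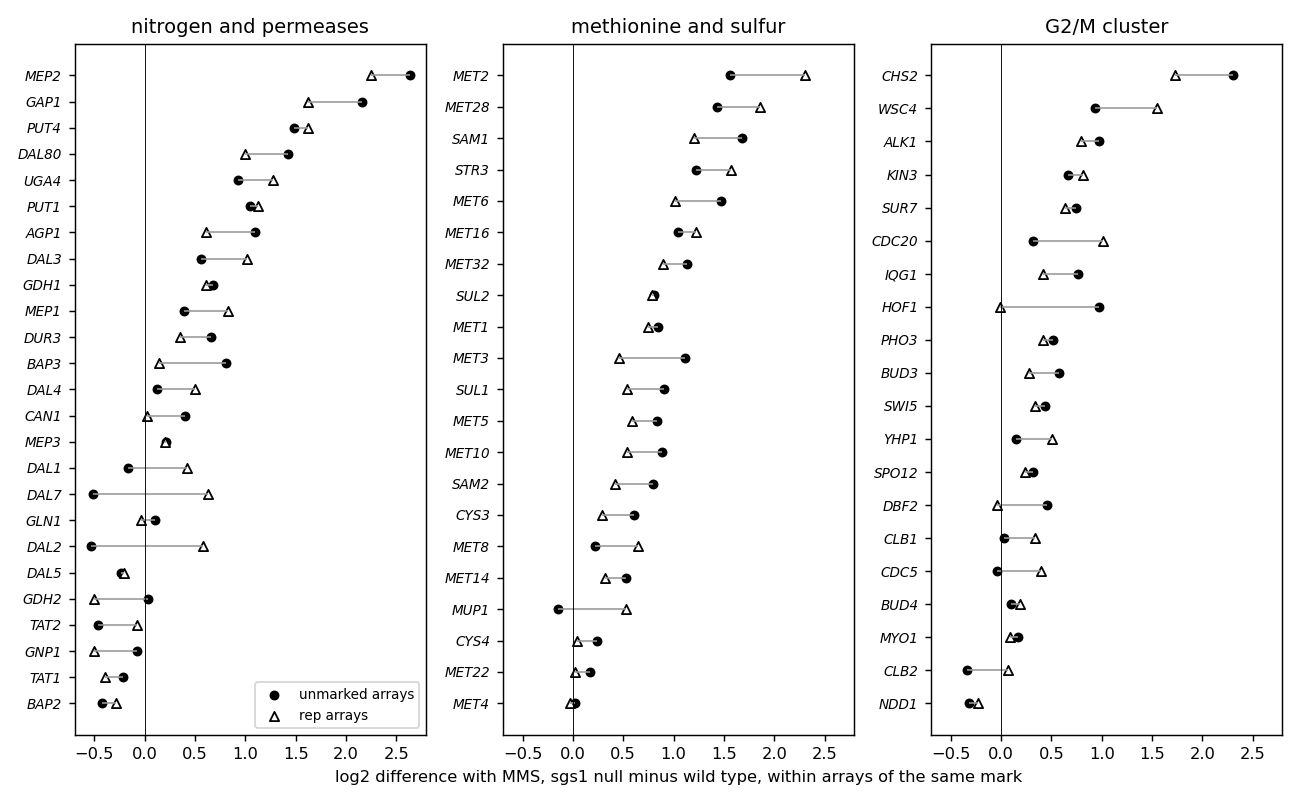
Log2 difference with MMS, sgs1 null minus wild type, of each measured member of 3 gene lists, taken between the unmarked arrays of the strains (circles) and between their rep arrays (triangles). In the methionine and sulfur panel both symbols lie right of 0 for all genes but MUP1 and MET4, while the nitrogen panel runs from MEP2 at 2.44 to BAP2 at -0.36.

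The named genes furthest below wild type, beside SGS1, act in the breakdown of aromatic amino acids. ARO9 and ARO10 encode the transaminase and the decarboxylase of the Ehrlich pathway, which turns phenylalanine, tyrosine and tryptophan into fusel alcohols. ARO10 read 1054 and 1299 in sgs1 null with MMS, against 4069 and 4483 in wild type with MMS, a log2 difference of -1.87 ± 0.16 (limma adjusted p = 0.092). ARO9 read 1989 and 3243 in sgs1 null, against 5830.3 and 9444 in wild type (-1.55 ± 0.34, adjusted p = 0.484). Neither gene's arrays overlapped between strains. Untreated, the difference had the same sign, -1.28 for ARO10 and -1.0 for ARO9.

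Other named genes with lower readings had varied roles. OPT2, an oligopeptide transporter gene, read 619.5 and 619 in sgs1 null with MMS, against 1228 and 1409.6 in wild type with MMS (-1.09 ± 0.12, limma adjusted p = 0.155). HPF1, a cell wall mannoprotein gene, read 816 and 1232 in sgs1 null, against 1997 and 4040.2 in wild type, with the arrays of each strain widely spread (-1.50 ± 0.63, and -0.99 without the second wild type array). GSY2, the main glycogen synthase, read 3046 and 5351 in sgs1 null, against 6513 and 11885 in wild type (-1.12 ± 0.46). Its difference was -0.69 without the second wild type array. Between the unmarked arrays of the strains it was -1.10, and between the rep arrays -1.15. The 15 lower genes with the smallest p also held INA22, for assembly of the mitochondrial ATP synthase (-1.28), IBA57, for iron-sulfur proteins of mitochondria (-1.04), and BDH2, of the alcohol dehydrogenase type (-1.07). They further held the small nucleolar RNA gene SNR39 (-1.0) and the uncharacterised YIL001W (-1.01) and YPR145C-A (-1.09, and -0.72 without the first wild type array with MMS). The sgs1 null arrays of INA22 and BDH2 were far apart, with 1186 and 489 for INA22 and 505 and 1079 for BDH2 in sgs1 null, against 2343 and 1453 for INA22 and 1215 and 1979.7 for BDH2 in wild type. Without the first sgs1 null array the difference was -1.92 for INA22 and -0.52 for BDH2, and without the second it was -0.64 for INA22 and -1.62 for BDH2. The mitochondrial pyrophosphatase gene PPA2 was just under 2-fold lower at 735 and 734 in sgs1 null, against 1426 and 1241 in wild type (-0.86 ± 0.09).

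Glucose-responsive and respiratory genes were among those that read higher. HXT4, a hexose transporter made at low to moderate glucose, read 1596 and 1533 in sgs1 null with MMS, against 582 and 456 in wild type with MMS (1.60 ± 0.19, limma adjusted p = 0.234). HXT5, a transporter of slow-growing cells, read 897 and 1406 in sgs1 null, against 469 and 553 in wild type (1.14 ± 0.23). MTH1, the glucose-sensing corepressor of HXT genes, read 1265 and 1944 in sgs1 null, against 559 and 551 in wild type (1.50 ± 0.24). HXT1, the low-affinity transporter induced by high glucose, went the other way at 744 and 759 in sgs1 null, against 1284 and 1613 in wild type (-0.94 ± 0.14, adjusted p = 0.299). Without MMS the strain difference was 2.35 for HXT5, 0.65 for HXT4, 0.57 for MTH1 and 0.39 for HXT1.

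Of 13 measured hexose transporters and sensors, 6 were higher and 1 lower without overlap, against 12.6% of all features higher and 12.9% lower. Their median was 0.16, with 0.03 without the first wild type array with MMS and 0.24 without the second. ISF1, a gene linked to mitochondrial function, read 829.6 and 811 in sgs1 null with MMS, against 335 and 275 in wild type with MMS (1.43 ± 0.12, limma adjusted p = 0.092). SHH3, a homolog of a succinate dehydrogenase subunit, read 655 and 616 in sgs1 null, against 254 and 179 in wild type (1.57 ± 0.21). The glyoxylate cycle gene MLS1, malate synthase, differed by 1.26 ± 0.32, and by 0.68 with a floor at the 20th percentile. It was the highest of 24 measured genes of the citrate and glyoxylate cycles. Of these 24, 6 were higher and 2 lower without overlap, and their median was 0.0006. Without MMS the strain difference was 0.35 for ISF1, 2.29 for SHH3 and 0.10 for MLS1. Of 36 respiratory chain genes 12 were higher and 1 lower without overlap, against the same shares of all features. They were led by CYC1, iso-1-cytochrome c (0.70 ± 0.29), yet their median was 0.08, with 0.01 under median centring and up to 0.16 with an array left out. The difference of CYC1 was 1.06 without the first sgs1 null array with MMS and 0.35 without the second. Untreated, the respiratory list also had 12 higher and 1 lower, with a median of 0.12, against 19.3% of all features higher and 19.6% lower.

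Mitochondrial ribosomal protein genes were lower as a group, by small amounts. These nuclear genes supply the ribosome that translates the few proteins encoded in mitochondrial DNA. Of 67 measured, 33 were lower in sgs1 null with MMS without overlap and 0 were higher, against 12.9% of all features lower and 12.6% higher. The median log2 difference of the 67 was -0.36, and -0.22 without the first wild type array with MMS. None was 2-fold lower and none passed the adjusted threshold. MRPS8 read 679 and 536 in sgs1 null, against 1295 and 975 in wild type (-0.90 ± 0.22), and MRPL11 read 451 and 868 in sgs1 null, against 962 and 1361 in wild type (-0.87 ± 0.36). The difference of MRPL11 was -0.40 without the first sgs1 null array with MMS and -1.34 without the second. The list stood apart in the untreated strains too, with 29 lower, 3 higher and a median of -0.33, where 19.6% of all features were lower and 19.3% higher.

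The cytoplasmic ribosome gave a weaker picture. The counts here are read against 12.6% of all features higher and 12.9% lower without overlap with MMS. Of 75 ribosomal protein genes, 22 were lower and 2 higher without overlap, and the median was -0.10, which ran from -0.23 without the first sgs1 null array with MMS to 0.01 without the second. RPS9A was the only one 2-fold lower, at 2985 and 1883 in sgs1 null, against 6059 and 4279 in wild type. Genes for ribosome biogenesis, which build and process ribosomal RNA, leaned higher, with 16 of 52 higher, 1 lower, and a median of 0.20. As each array was left out, that median ran from 0.03 without the first sgs1 null array with MMS to 0.35 without the second. Between arrays of the same mark it was 0.19 (unmarked) and 0.17 (rep). Proteasome genes had 12 of 35 lower and 3 higher, with a median of -0.12 that ran from -0.23 without the second wild type array with MMS to -0.06 without the second sgs1 null array. Near-identical pairs of ribosomal protein genes can share signal on these probes, so single members are uncertain.

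**Figure D3:**
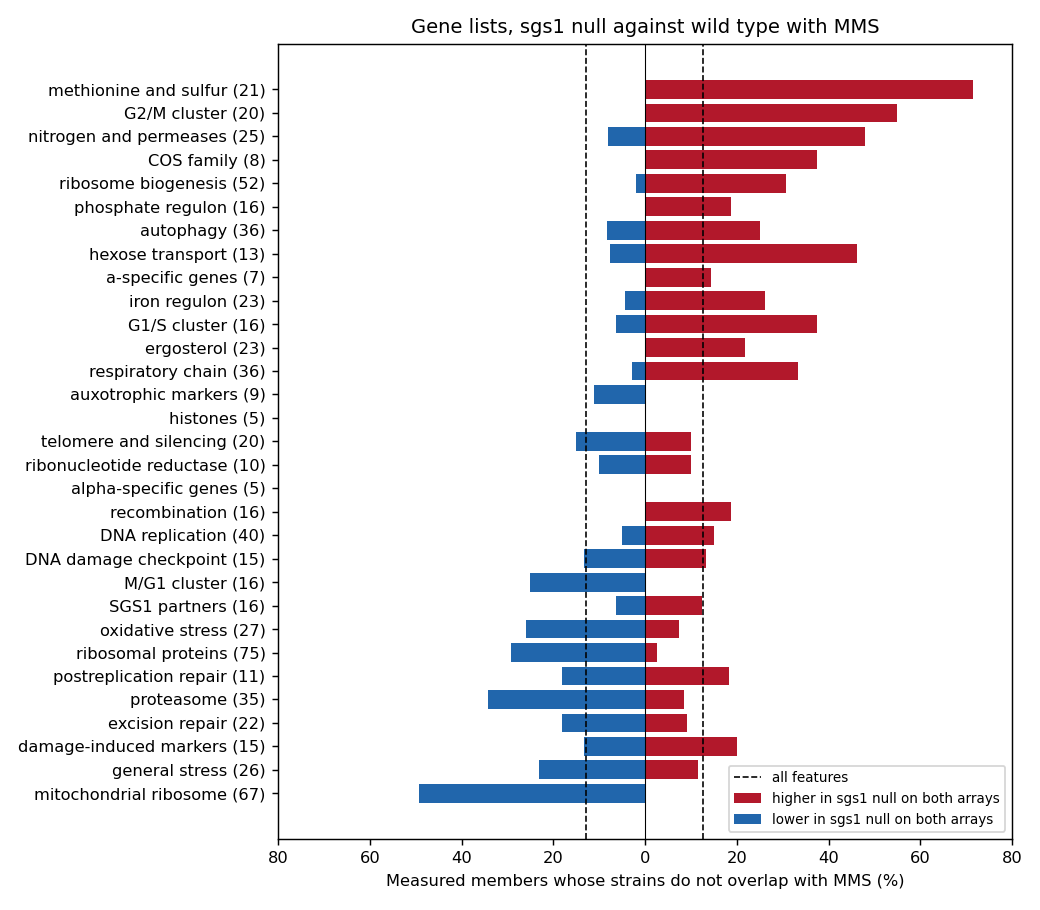
Bars give, for each gene list described here except the citrate and glyoxylate cycles, the percent of measured members whose 2 strains do not overlap with MMS. Members higher in sgs1 null lie to the right in red and lower ones to the left in blue, with the number measured in brackets. Dashed lines mark the shares over all features, 12.6% higher and 12.9% lower. The methionine and sulfur list reaches furthest to the right (15 of 21) and the mitochondrial ribosome furthest to the left (33 of 67).

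Several genes that peak late in the cell cycle read higher in sgs1 null with MMS. The G2/M genes are turned on before mitosis by Fkh2 and Ndd1 with Mcm1, and include the septum chitin synthase CHS2. CHS2 read 673 and 908 in sgs1 null with MMS, against 136 and 274 in wild type with MMS (2.02 ± 0.40, limma adjusted p = 0.404). Without MMS it read 1344 and 955 in sgs1 null and 1379.7 and 1705 in wild type, so the lowest readings were those of wild type with MMS. WSC4, a cell wall sensor-like protein, read 416 and 656 in sgs1 null with MMS, against 218 and 224 in wild type with MMS (1.24 ± 0.23). The mitotic kinase genes ALK1 (0.88 ± 0.17) and KIN3 (0.74 ± 0.13) followed. In the list of 20, 11 were higher and 0 lower without overlap with MMS, against 12.6% of all features higher and 12.9% lower. The median of the list was 0.41, and 0.24 without the second sgs1 null array with MMS. Untreated, the same list had 3 higher and 10 lower and a median of -0.40, against 19.3% of all features higher and 19.6% lower.

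Genes of the M/G1 boundary, many of which make enzymes that separate daughter from mother, differed little as a list, with some members lower. DSE4, a daughter-specific glucanase, read 329 and 598 in sgs1 null with MMS, against 843 and 1269 in wild type with MMS (-1.22 ± 0.36, limma adjusted p = 0.619), a difference of -0.79 without the first sgs1 null array. EGT2, also of cell separation, read 1209 and 1295 in sgs1 null, against 1950.1 and 2186 in wild type (-0.72 ± 0.16), and the glucanase gene SCW11 differed by -0.77 ± 0.33. Of 16, 4 were lower and 0 higher without overlap, against 12.9% of all features lower and 12.6% higher. The median of the 16, -0.06, ran from -0.29 without the first wild type array with MMS to 0.09 without the first sgs1 null array. Between arrays of the same mark it was -0.12 (unmarked) and -0.14 (rep). Of 16 G1/S genes, 6 were higher and 1 lower, among the higher the G1 cyclin genes CLN1 (0.79 ± 0.17) and CLN2 (0.58 ± 0.25). Their median of 0.13 ran from -0.02 to 0.37 when those same arrays were left out. Between arrays of the same mark it was 0.24 (unmarked) and 0.19 (rep). Untreated, the M/G1 list had 0 higher and 9 lower, with a median of -0.48. The G1/S list had 0 higher and 5 lower there, with a median of -0.23. Of all features, 19.3% were higher and 19.6% lower untreated. In bulk RNA, fewer cells at a stage and less RNA per cell cannot be told apart.

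Genes of the DNA damage response lay apart between the strains under MMS about as often as features in general. Of 15 damage-induced markers, 3 were higher and 2 lower without overlap, against 12.6% of all features higher and 12.9% lower, and 0 were 2-fold apart, with a median of -0.14 that ran from -0.25 without the first wild type array with MMS to 0.04 without the first sgs1 null array. RNR3, the damage-induced large subunit of ribonucleotide reductase, read 755 and 1129 in sgs1 null, against 1216 and 1510.0 in wild type (-0.55 ± 0.44, adjusted p = 1), a difference of -0.26 without the first sgs1 null array with MMS and -0.84 without the second. RNR1 read 2293 and 2730.0 in sgs1 null and 2184 and 3045 in wild type, and the strains overlapped. HUG1, a checkpoint-controlled inhibitor of ribonucleotide reductase, read 1784 and 1773 in sgs1 null and 1777 and 2576 in wild type, again with overlap. The recombination gene RAD54 read 1759 and 1664 in sgs1 null and 1756 and 2043 in wild type, and MAG1, the glycosylase that removes methylated bases, 2828 and 1585 in sgs1 null and 2783 and 1989.9 in wild type. Neither separated the strains. In the untreated strains 6 of the 15 markers were higher and 2 lower without overlap, with a median of 0.29. The shares there were 19.3% of all features higher and 19.6% lower. HUG1 lay apart there, higher in sgs1 null by 0.84.

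The other repair lists are given against the same shares, 12.6% of all features higher and 12.9% lower without overlap. None of their members was 2-fold apart, where 1.03% of all features were 2-fold higher and 0.497% lower, and none passed the adjusted threshold. The DNA damage checkpoint had 2 higher and 2 lower of 15, with LCD1, the partner of Mec1, the furthest at 0.57 ± 0.16. Recombination had 3 higher and 0 lower of 16, excision repair 2 and 4 of 22, and postreplication repair 2 and 2 of 11, where the translesion polymerase gene REV3 differed by 0.73 ± 0.35 (0.36 without the first wild type array with MMS and 1.10 without the second). DNA replication had 6 higher and 2 lower of 40, and ribonucleotide reductase 1 and 1 of 10. Among 16 partners of SGS1, which include its topoisomerase and the nucleases that work beside it, 2 were higher and 1 lower. TOP3 gave low readings, at 97.1 and 338 in sgs1 null and 191 and 378 in wild type, and showed no separation. The medians of these lists lay between -0.14 and 0.01, and all but that of postreplication repair turned sign with some array left out. With a median standard error of 0.28 per gene on the log2 scale, small differences were not detectable with 2 arrays per group. Large ones could be missed too, since SGS1 itself, at least 4.53-fold lower in sgs1 null, did not pass the adjusted threshold.

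Oxidative stress genes, many of them controlled by the factor Yap1, had 2 of 27 measured members 2-fold apart, 1 higher and 1 lower, against 1.03% of all features higher and 0.497% lower. ATR1, a multidrug efflux pump regulated by Yap1 and Gcn4, lay furthest below wild type at 2129 and 2283 in sgs1 null with MMS, against 4379.9 and 4539 in wild type with MMS (-1.02 ± 0.15, limma adjusted p = 0.299). GLR1, glutathione reductase, read 4359.9 and 3631 in sgs1 null, against 6065 and 6233 in wild type (-0.63 ± 0.14). YAP1 read 2303 and 2068 in sgs1 null, against 2857 and 3474 in wild type (-0.53 ± 0.17). GTT2, a glutathione transferase gene, was higher at 10000.0 and 9128 in sgs1 null, against 6982 and 6860.2 in wild type (0.47 ± 0.17), and so was CTA1, the peroxisomal catalase (1.04 ± 0.44). Of the 27, 2 were higher and 7 lower without overlap, against 12.6% of all features higher and 12.9% lower. The median of the 27 was -0.10, and -0.03 without the first sgs1 null array with MMS. Of 26 general stress genes, 3 were higher and 6 lower, with a median of -0.24. This median turned to 0.21 without the first sgs1 null array with MMS and to 0.09 without the second wild type array with MMS. Between arrays of the same mark it was -0.26 (unmarked) and -0.05 (rep).

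Genes near chromosome ends included some of the larger differences. COS8, of a subtelomeric family of membrane proteins that aid protein sorting to the vacuole, read 1663 and 2028 in sgs1 null with MMS, against 398 and 469 in wild type with MMS (2.09 ± 0.18, limma adjusted p = 0.092). YIR043C, an uncharacterised gene near the end of chromosome IX, read 393 and 325 in sgs1 null, against 119 and 119 in wild type (1.59 ± 0.11, adjusted p = 0.075). COS12 was at the floor in both wild type arrays and read 245 and 181 in sgs1 null, at least 2.17-fold higher. With a floor at the 20th percentile the difference was 0.91 for YIR043C and 0.11 for COS12, against 1.12 for COS12 from the main floor. Of 8 COS genes, 3 were higher and 0 lower without overlap, against 12.6% of all features higher and 12.9% lower. The COS genes resemble each other in sequence, so a probe set may read several of them.

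Taking the 10 genes nearest each end of every chromosome, 179 were measured, of which 44 were higher and 22 lower without overlap, and 7 and 1 by 2-fold. Over the other 5401 genes, 738 were higher and 748 lower, and 56 and 15 by 2-fold. The list medians were 0.05 near ends and 0.00 elsewhere. No chromosome stood apart as a whole: the medians of the 16 nuclear chromosomes lay between -0.10 on chromosome IX and 0.04 on chromosome XII. At the SGS1 locus, among the 5 genes on each side of SGS1 on chromosome XIII, 0 differed by 2-fold with MMS. Of these genes 2 were higher and 3 lower without overlap. Over all features 12.6% were higher and 12.9% lower without overlap. Untreated, 1 of these neighbours was higher and 2 lower without overlap, where 19.3% of all features were higher and 19.6% lower. Their untreated differences ran from -1.28, in the gene next to SGS1, to 1.72.

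Genes that could mark a difference between the strains other than SGS1 were examined. Of 11 common auxotrophic marker genes 9 were measured, and 0 were 2-fold apart. HIS3 was the only one without overlap, at 1133 and 1317 in sgs1 null and 1334 and 1339 in wild type. Of 7 a-specific genes 1 was higher without overlap, and of 5 alpha-specific genes 0 were, none of them by 2-fold. The shares over all features with MMS were 12.6% higher and 12.9% lower without overlap. HO, the mating type switching endonuclease, read 379 and 563 in sgs1 null with MMS, against 254 and 153 in wild type with MMS (1.23 ± 0.33, limma adjusted p = 0.614).

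Further genes 2-fold apart are described singly. GRE1, a stress-induced hydrophilin, read 925 and 1654 in sgs1 null with MMS, against 289 and 191 in wild type with MMS (2.40 ± 0.39, limma adjusted p = 0.299). OLE1, the fatty acid desaturase, read 10308 and 7206 in sgs1 null, against 2629.6 and 3667 in wild type (1.47 ± 0.24), and ANB1, a translation factor gene expressed under low oxygen, 705 and 1031 in sgs1 null, against 228 and 408 in wild type (1.48 ± 0.38). Without MMS the strain difference was smaller for OLE1 (0.31) and ANB1 (0.05) and larger for GRE1 (3.04). PIR3, a cell wall glycoprotein gene, differed by 1.57 ± 0.28. SSA3, a heat shock protein gene and the highest member of the general stress list, differed by 1.45 ± 0.41, and by 0.88 without the first wild type array with MMS. HMS1, a factor of filamentous growth, read 307 and 208 in sgs1 null, against 97.1 and 99.2 in wild type (1.37 ± 0.20), and with a floor at the 20th percentile its difference was 0.27. SSK22, a kinase of the osmotic stress pathway, read 664 and 841 in sgs1 null, against 375 and 342 in wild type (1.06 ± 0.16). Without MMS the strain difference was 1.18 for PIR3, 1.56 for SSA3, 0.63 for HMS1 and 0.55 for SSK22.

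The strain difference was next set beside the same comparison without MMS, which shares no array with it. Without MMS, limma called 2 features (0.0262%), both unnamed and 1 of them 3982_at, and 245 features were higher (3.21%) and 98 lower (1.28%) in sgs1 null by the 2-fold rule. Of the 79 features 2-fold higher with MMS, 69 had the same sign without MMS, 54 were higher without overlap and 30 were 2-fold higher. Of all 7641 features, 4318 had the same sign in both conditions and 1967 lay without overlap, untreated, on the side of their difference with MMS. Of the 38 lower with MMS, 28 had the same sign, 22 were lower without overlap and 11 were 2-fold lower. The 41 features shared were 35.0% of the set with MMS and 12.0% of the set without. Across features, which are not independent and share arrays scaled together, the differences in the 2 conditions had a Pearson correlation of 0.381 and a Spearman correlation of 0.290.

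**Figure D4:**
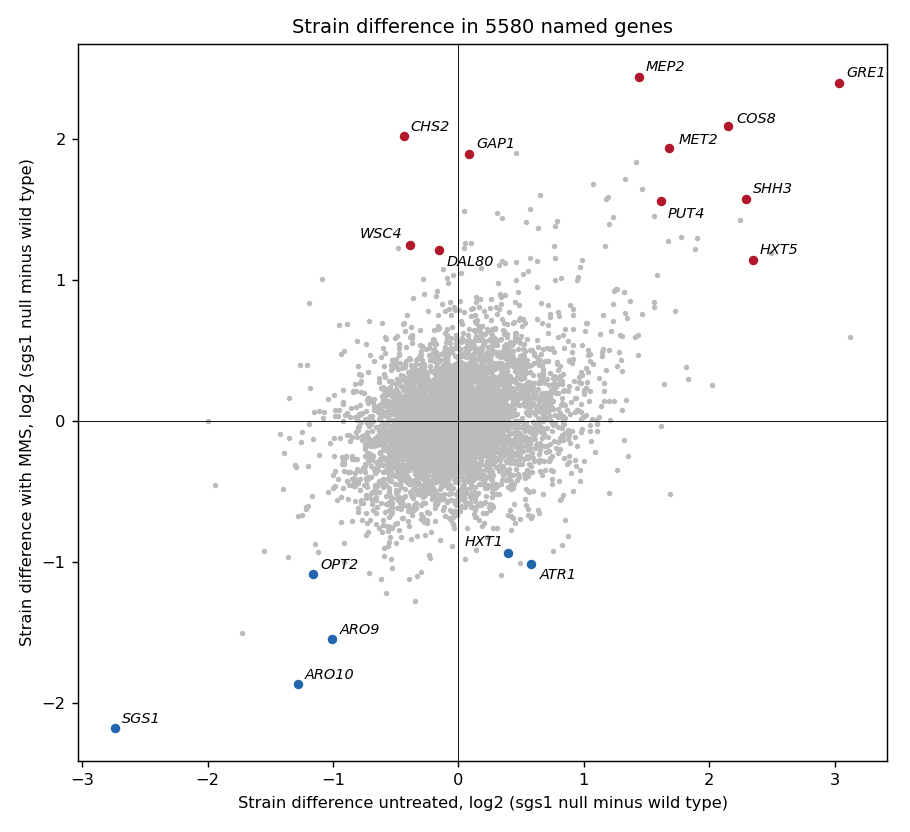
Log2 strain difference (sgs1 null minus wild type) with MMS on the vertical axis against that without MMS on the horizontal axis, 1 point per named gene (5580), with genes discussed in the text in red (higher with MMS) or blue (lower). COS8, MET2 and GRE1 lie high in both conditions, GAP1 is at 1.89 with MMS and 0.09 without, CHS2 at 2.02 with MMS and -0.44 without, and ATR1 and HXT1 lie below 0 with MMS and above it without.

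Whether the strain difference itself depended on MMS was tested with the interaction term, and 0 of 7641 features passed limma's adjusted threshold, while 363 (4.75%) had an unadjusted p below 0.05. GAP1 had the smallest p of the named genes, an interaction of 1.81 ± 0.20 on the log2 scale with an adjusted p of 0.749. For MEP2 it was 1.00 ± 0.24 (adjusted p = 0.884), with 2019 and 2499 in untreated sgs1 null and 871 and 790.1 in untreated wild type. COS8 and PUT4 had strain differences of similar size in both conditions, 2.09 with MMS and 2.15 without for COS8, and 1.55 with MMS and 1.61 without for PUT4.

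**Figure D5:**
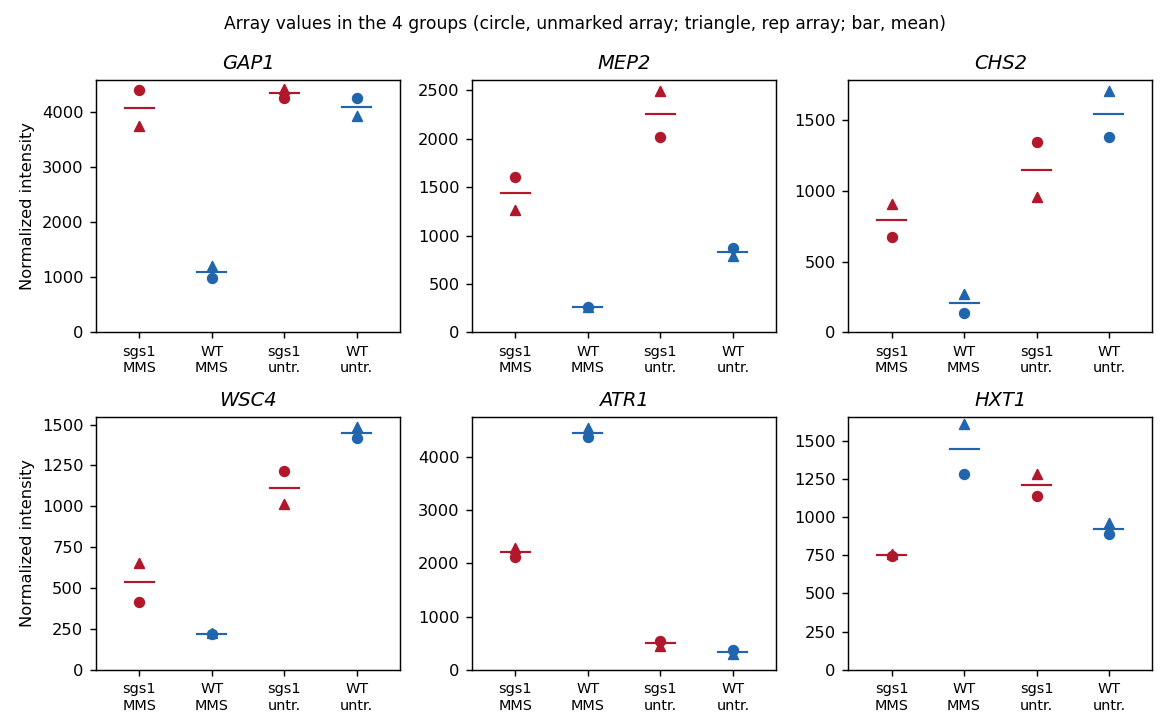
Normalized intensity, on linear axes from 0, of 6 genes in each group: sgs1 null and wild type with MMS, then sgs1 null and wild type untreated, with sgs1 null in red and wild type in blue, circles for unmarked arrays, triangles for rep arrays and bars for the mean. GAP1, CHS2 and WSC4 are lowest in wild type with MMS, ATR1 is highest there, and MEP2 is higher in sgs1 null in both conditions.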

How the data were processed

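Total RNA of 8 samples was measured on one-colour Affymetrix arrays, and the authors deposited 1 linear intensity per probe set and array. Their software, scaling and background correction are not stated in the labels or files. Deposited array medians spread by 25.1%, and means trimmed by 2% at each end by 0.478%. Of 8363 probe sets, 32 controls and 1 with a missing value were left out. Those with 1 symbol in the platform annotation (6269, all found in the RefSeq table) were named, those with several (309) or none (1752) were tested unnamed, and 291 genes had their probe sets averaged. Arrays were quantile normalized, values below the 10th percentile (97.1) were raised to it, and log2 intensities were fitted with limma 3.58.1 in R 4.3.3, with 4 group means over all 8 arrays (4 residual and 0.986 prior degrees of freedom). P-values were adjusted by Benjamini-Hochberg over 7641 features. Differences are of mean log2 intensity, ± standard error, and those against the floor are bounds. Precision is limited by the number of arrays.

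The members and gene lists were chosen with earlier results of these data known. Genes to name were picked by rule: in each direction the 15 with the smallest p among those 2-fold apart without overlap, the 3 furthest of each list, set damage, mating type and marker genes, the neighbours of SGS1, and the 8 with the smallest interaction p. Not all genes picked are named in the text, and the neighbours of SGS1 and some list members are not. Other genes named, and the 2-fold rule, were chosen after their values were seen. The steps were tested on simulated data. Alternatives were median centring, the deposited scale, a floor at the 20th percentile or none, no features among the dimmest 25%, only the 4 arrays of a comparison, an intensity trend, the rep mark as a block, each probe set on its own, and each array left out.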

Additional observations from a re-analysis of the deposited data

Results flagged for a closer look

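In 9 genes named in the text both arrays of sgs1 null lay on one side of both wild type arrays with MMS and on the opposite side without MMS. Genes not named in the text were left out of this count. The change in the strain difference (with MMS minus without, log2) was tested by limma's interaction term, and for none of the 9 did it pass, with adjusted p-values from 0.812 to 1. It was 2.45 for the chitin synthase gene CHS2, 1.71 for the mating type switching gene HO, 1.63 for the sensor gene WSC4, 1.42 for the cytochrome c gene CYC1 and 1.36 for the nitrogen regulator DAL80. All 5 were higher in sgs1 null than in wild type with MMS and lower in it without. It was -1.60 for the efflux pump gene ATR1, -1.50 for the uncharacterised gene YIL001W, -1.33 for the glucose transporter gene HXT1 and -0.68 for the permease gene BAP2. These 4 were lower in sgs1 null than in wild type with MMS and higher in it without.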

How the results depend on the processing

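The number of features called between the strains with MMS was 1, and it was 3 with median centring (adding PUT4 and MEP2), 2 on the deposited scale (MEP2), 4 without the dimmest 25% of features (MEP2, GAP1 and COS8) and 2 with an intensity trend (YIR043C). It was 1 with the other settings and with each array left out. The probe set 3982_at was called in every setting. Without MMS the number was 2, and 4 on the deposited scale, 6 with a floor at the 20th percentile, 13 with no floor, 10 without the dimmest 25%, 1 with only the 4 arrays of that comparison, 5 with an intensity trend, and 1 to 2 with an array left out. For the interaction it was 0, and 1 with the higher floor (DAN1) and 3 with the intensity trend, all unnamed. The 2-fold rule gave 79 higher and 38 lower features, against 147 and 94 with no floor, and 120 to 206 and 117 to 145 with an array left out, where a lone array overlaps less easily. Of 1418 values of 84 features named in the text under the alternatives, 1412 kept their direction, and the 6 that did not came from leaving out an array: RNR1 (-0.28 to 0.20), TOP3 (-1.47 to 0.33), MAG1 (-0.57 to 0.27) and HUG1 (-0.53 to 0.00138). Of 527 list medians under alternatives, 103 moved by at least the SD of the list's 2 medians between arrays of the same mark. That SD is small where the 2 medians lie close together.

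Whether the rep mark pairs the arrays is not stated, and with it as a replicate block limma called 1 feature, 3982_at (adjusted p = 0.000506). Deviations of the rep arrays from their group means correlated at 0.667 between sgs1 null and wild type with MMS, and between -0.075 and 0.543 for the other pairs of groups. Leaving out 1 array sets arrays of unlike mark against each other, so the shifts given for it may hold a difference between marks. Between arrays of the same mark, the medians of ribosome biogenesis (0.19 and 0.17) and M/G1 (-0.12 and -0.14) were steadier. That of postreplication repair turned sign, from -0.32 between unmarked arrays to 0.11 between rep arrays. These limits come from 2 arrays per group. Intensities under 97.1 carry no order, and 333 features lay there on all 4 arrays with MMS.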

Other observations

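The lists in this paragraph held no gene that passed limma's adjusted threshold, and their medians in sgs1 null with MMS lay between 0.02 and 0.18. Some lists not described here lay outside this range, such as the maltose genes at 0.38 and glycolysis at -0.09. Of 36 autophagy genes, 9 were higher and 3 lower without overlap, against backgrounds of 12.6% and 12.9%, with ATG39, the receptor for autophagy of the nucleus, the furthest at 0.82. Their median was 0.17, with 0.03 without the second sgs1 null array with MMS and 0.31 without the first. Untreated, 22 of the 36 were higher and 2 lower, with a median of 0.40, against 19.3% of all features higher and 19.6% lower. Of 23 ergosterol genes, 5 were higher and 0 lower, led by ERG7, lanosterol synthase (0.47), with a median of 0.11 that ran from -0.03 without the first wild type array with MMS to 0.22 without the second. Of 23 iron regulon genes, 6 were higher and 1 lower (median 0.15). Of 16 phosphate regulon genes, 3 were higher and 0 lower (median 0.18, and 0.12 without the second wild type array with MMS). PHO89, the sodium-coupled phosphate transporter gene, read 1173 and 823 in sgs1 null with MMS, against 502 and 369.5 in wild type with MMS. Its strain difference was 1.19 with MMS and 2.50 without. Of 20 telomere and silencing genes, 2 were higher and 3 lower (median 0.02), and of 5 histone genes 0 lay apart (median 0.03). Both of these medians turned below 0 without the first wild type array with MMS, at -0.12 and -0.29.

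Among genes on no list, AAH1, adenine deaminase, read 379 and 342 in sgs1 null with MMS, against 97.1 and 131 in wild type with MMS, where 1 array was at the floor (1.68 ± 0.39, and 0.78 with a floor at the 20th percentile). QDR2, a drug and potassium exporter gene, read 1260.4 and 1418 in sgs1 null, against 426 and 587 in wild type (1.42 ± 0.26). Besides the named genes, 16 unnamed features were 2-fold higher and 22 were 2-fold lower, so most of the lower set of 38 carries no gene name here.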
